A study of Mus musculus with 6 samples.

Results

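Potassium channel genes were taken as all mouse genes whose symbol in the platform annotation begins with Kcn. Of 22180 genes named by a probe set with 1 symbol, 90 met this rule, and they were measured by 97 probe sets. The study compared heart-derived cells with induced pluripotent stem (iPS) cells of the mouse, made by reprogramming and able to give rise to most tissues, before and during cardiac differentiation, on Affymetrix Mouse Gene 2.0 ST arrays. There were 6 groups with 1 library each: cells labelled adult cardiomyocytes, taken from adult mouse heart; cells labelled neonatal cardiomyocytes, taken from neonatal heart; iPS cultures at day 7 of differentiation with DMSO and NRG-1, with NRG-1 alone or with DMSO alone; and undifferentiated iPS cells. The cultures had spent 5 days in suspension as embryoid bodies and were then plated on gelatin with 1% DMSO, 100 ng/ml NRG-1 or both. DMSO, a solvent, is in use as an inducer of differentiation, and the protein NRG-1 (neuregulin 1) signals through ERBB receptors. No differentiated culture without either agent was among the libraries, so DMSO and NRG-1 cannot be told apart from differentiation itself in any comparison with iPS cells. All 6 libraries are labelled strain DBA/2J and female, no genetic change is stated, and the iPS cells were grown on feeder cells.

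Potassium channels let potassium ions leave the cell and so set the resting potential and end the action potential. Their pore subunits fall into voltage-gated channels (the Kcna to Kcnd, Kcnh, Kcnq and modifier subfamilies), inward rectifiers (Kcnj), tandem pore domain leak channels (Kcnk), and channels opened by intracellular calcium or sodium (Kcnma, Kcnn, Kcnt). Accessory subunits (Kcnab, Kcne, Kcnip, Kcnmb) change the gating or trafficking of the pores. In heart muscle, transient outward, delayed rectifier and inward rectifier currents shape repolarisation, and an acetylcholine-activated inward rectifier slows the atria and the pacemaker.

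All levels given here are log2 values made by RMA, which subtracts background, brings the arrays to a common distribution and combines probes into probe sets, and 1 unit is a 2-fold difference. The level of a gene with several probe sets is their mean. With 1 library per group, no value has a replicate error, nothing was tested, and a difference describes 2 libraries, not 2 conditions. The medians of the 6 libraries lay between 5.13 and 5.26, and the median of the whole table was 5.20. The disagreement of the probe sets in a difference (its SD divided by the square root of 2) was taken over genes with 2 probe sets. Only genes whose higher level in the comparison was at or above the table median entered, so dim genes are not covered. The disagreement was 0.670 for the adult minus the iPS library and 0.205 for DMSO with NRG-1 minus DMSO, the extremes of the 9 comparisons. This covers the probes alone and not the variation between cultures or animals. In a bulk library, fewer cells of a type and less RNA per cell cannot be told apart.

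The labels were checked first. The Y-linked gene Uty stood at 7.55 in the adult and 7.14 in the neonatal library, against 2.76 to 3.65 in the cultures and 4.06 in iPS cells, which goes against the label female for both heart-derived libraries. Xist, the RNA that coats the silenced X in female cells, stood at 3.39 in the adult and 8.78 in the neonatal library and 6.49 to 6.91 in the cultures, against 5.97 in iPS cells, so the neonatal library held Xist as well as Uty. Of 12 markers of heart muscle cells, 7 were at or above the table median in the adult and 12 in the neonatal library, against 8 in iPS cells. Their mean level was 5.52 in the adult and 6.50 in the neonatal library and 6.76 to 7.17 in the cultures, against 5.56 in iPS cells. The 7 fibroblast markers averaged 11.3 in the adult and 10.8 in the neonatal library and 8.62 to 9.05 in the cultures, against 6.86 in iPS cells. Cardiomyocyte is therefore used below only as the name on the label. Comparisons among the cultures and iPS cells use neither of these 2 libraries.

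Most potassium channel genes were dim and differed little between the 6 libraries. In all, 47 of the 90 genes were below the table median in every library, or 52.2%, against 34.3% of all 22180 genes. The distance between the highest and the lowest library had a median of 0.62 for the 90 genes and 0.78 for all genes. It reached 1, or 2-fold, for 18 of the 90 (20.0%), against 35.7% of all genes. The highest library was the NRG-1 culture for 23 of the 90 genes (25.6%, against 15.8% of all genes), and the lowest was the neonatal library for 29 (32.2%, against 19.2%). The NRG-1 library also had the highest median, 5.26, and the neonatal median, 5.15, was above only that of iPS cells, 5.13. These counts include dim genes, and the shares over all genes were not matched for level. Levels of different probe sets are not comparable in absolute terms, since probes differ in affinity, so a gene below the median is dim on this array and not shown to be off.

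The genes below the median in every library were, among voltage-gated pores, Kcna1, Kcna2, Kcna3, Kcna5, Kcna7, Kcna10, Kcnb2, Kcnc1, Kcnc2, Kcnd2, Kcnf1, Kcng2, Kcng4, Kcnh1, Kcnh4, Kcnh5, Kcnh6, Kcnh7, Kcnh8, Kcnq1, Kcnq3, Kcns1 and Kcnv2, or 23 of 36. Among inward rectifiers they were Kcnj1, Kcnj2, Kcnj3, Kcnj5, Kcnj6, Kcnj8 and Kcnj16, or 7 of 14. Among accessory subunits they were Kcnab2, Kcnab3, Kcne2, Kcne3, Kcnip1, Kcnip2, Kcnip4, Kcnmb2, Kcnmb3 and Kcnmb4, or 10 of 16. In the tandem pore family only Kcnk9, Kcnk10 and Kcnk18 were on this list, 3 of 13. Of the calcium- and sodium-activated pores and their relatives, Kcnn2 and the sperm channel gene Kcnu1 were on it, 2 of 8. The antisense RNA Kcnd3os and the regulator Kcnrg completed it. The nearest values on either side of the median were a highest level of 5.19 among the listed genes and of 5.24 among the others. Within the list the libraries were under 2-fold apart for 43 genes, and the other 4 were Kcnip2, Kcnd3os, Kcnu1 and Kcnf1.

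The remaining 43 genes reached the median in at least 1 library, and 18 of them in all 6. Of the 43, 29 kept all libraries within 2-fold, with distances of 0.22 for Kcnh2 to 0.95 for Kcnip3. The 14 others were Kcnk1, Kcnk2, Kcnk5, Kcnk6, Kcnk13, Kcnma1, Kcnn3, Kcnn4, Kcnt2, Kcnmb1, Kcnab1, Kcne4, Kcnh3 and Kcnj15. The families are taken in turn below.

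**Figure D1:**
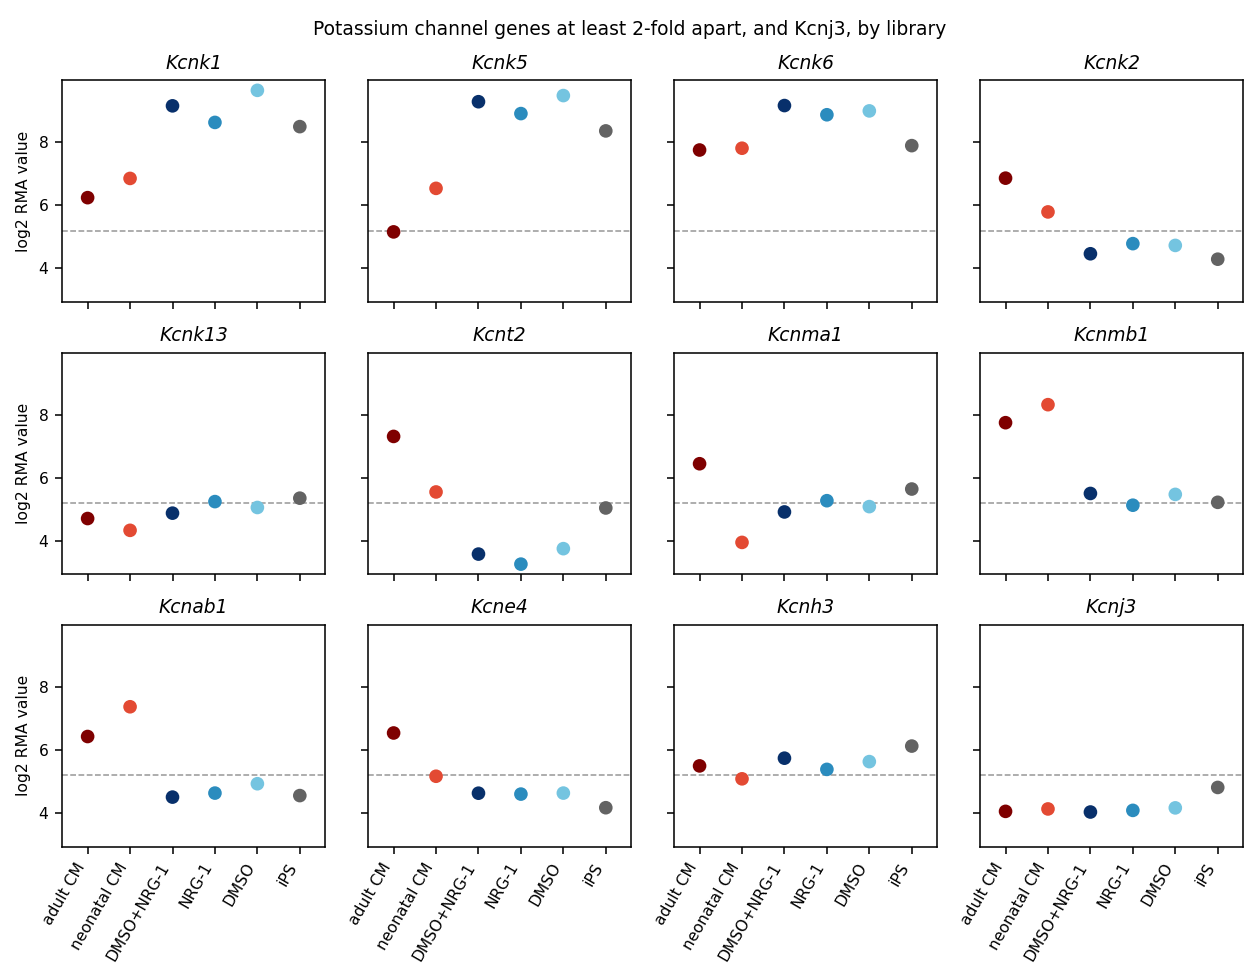
Log2 RMA value (vertical axis) of the 11 potassium channel genes that were at least 2-fold apart in a comparison, and of Kcnj3, in each library (horizontal axis, 1 point per library, no replicates). The dashed line is the table median of 5.20; Kcnk1 and Kcnk5 are lower in the heart-derived libraries than in all others, and Kcnmb1 and Kcnab1 are higher there.

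By gene means, the tandem pore family held the largest contrast between libraries, 4.32 for Kcnk5. A single probe set of Kcnma1, described below, differed by 4.60 between the adult and neonatal libraries. Kcnk5 (Entrez Gene 16529) encodes TASK-2, a leak channel opened by alkaline pH and known from kidney epithelium. It stood at 5.16 in the adult and 6.54 in the neonatal library, at 9.29, 8.91 and 9.48 in the cultures with both agents, NRG-1 and DMSO, and at 8.36 in iPS cells. Both heart-derived libraries were below the other 4. The differences from iPS cells were -3.20 in the adult and -1.82 in the neonatal library, and 0.93, 0.55 and 1.12 in the cultures with both agents, NRG-1 and DMSO.

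Kcnk1 (Entrez Gene 16525) encodes TWIK-1, a weakly conducting leak channel. Its levels were 6.24 in the adult and 6.85 in the neonatal library, 9.15, 8.63 and 9.65 in the cultures with both agents, NRG-1 and DMSO, and 8.50 in iPS cells. The order of the groups was as for Kcnk5. Against iPS cells the adult library differed by -2.25 and the neonatal one by -1.64, and the cultures with both agents, NRG-1 and DMSO by 0.66, 0.13 and 1.15.

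Kcnk6 encodes TWIK-2, a relative of TWIK-1. It was 7.75 in the adult and 7.81 in the neonatal library and 9.16, 8.87 and 8.99 in the cultures with both agents, NRG-1 and DMSO, against 7.89 in iPS cells. Unlike the pair above, the heart-derived libraries lay within 0.14 of iPS cells, and the cultures alone stood higher. The differences were 1.27, 0.98 and 1.10 for both agents, NRG-1 and DMSO. Epithelial markers also differed between these libraries, but not all in the same direction as these genes. The 5 epithelial markers (Epcam, Cdh1, Krt8, Krt18 and Krt19) averaged 5.64 in the adult and 7.07 in the neonatal library and 10.8 to 10.9 in the cultures, against 7.75 in iPS cells, and 4 of 5 were at least 2-fold higher than in iPS cells in each culture. In the adult library 3 (Epcam, Cdh1 and Krt8) were at least 2-fold lower than in iPS cells, where Kcnk6 differed by -0.14. In the neonatal library 2 were higher (Krt18 and Krt19) and 2 lower (Epcam and Cdh1), where Kcnk1 and Kcnk5 were both lower. Their part in the Kcnk1, Kcnk5 and Kcnk6 values was not tested.

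Kcnk2 and Kcnk13 ran the other way or differed less. Kcnk2 encodes TREK-1, a leak channel opened by stretch and lipids that is present in heart. Its levels were 6.86 in the adult and 5.79 in the neonatal library and 4.46, 4.78 and 4.73 in the cultures with both agents, NRG-1 and DMSO, against 4.29 in iPS cells. Only the heart-derived libraries were above the table median. The differences from iPS cells were 2.57 for the adult and 1.50 for the neonatal library. Kcnk13, which encodes the halothane-inhibited channel THIK-1, was 4.70 in the adult and 4.33 in the neonatal library and 4.87 to 5.24 in the cultures, against 5.35 in iPS cells. The other tandem pore genes above the median in some library, Kcnk4, Kcnk7, Kcnk12, Kcnk15 and Kcnk16, kept all libraries within 0.72.

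The 250 bases before the annotated start of 3 genes are shown, because Kcnk5 was higher in the iPS and culture libraries while Kcnab1 and Kcne4, described below, were higher in the heart-derived ones. They are from RefSeq (GRCm38.p6), and each window ends at the base before the gene's first annotated base. Capitals mark GGGCGG, the core of the GC box, on either strand. The TEAD core CATTCC was also searched on both strands, as were the TATA motif TATAAA and, by name, the CArG box bound by serum response factor, and none of them is in these 3 windows.
Kcnk5, chr14:20181783-20182032, minus strand: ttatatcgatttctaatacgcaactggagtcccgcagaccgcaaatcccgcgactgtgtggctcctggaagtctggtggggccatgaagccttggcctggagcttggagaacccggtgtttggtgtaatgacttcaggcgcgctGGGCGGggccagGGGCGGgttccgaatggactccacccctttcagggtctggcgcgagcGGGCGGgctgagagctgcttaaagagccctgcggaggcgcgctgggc
Kcnab1, chr3:64948962-64949211, plus strand: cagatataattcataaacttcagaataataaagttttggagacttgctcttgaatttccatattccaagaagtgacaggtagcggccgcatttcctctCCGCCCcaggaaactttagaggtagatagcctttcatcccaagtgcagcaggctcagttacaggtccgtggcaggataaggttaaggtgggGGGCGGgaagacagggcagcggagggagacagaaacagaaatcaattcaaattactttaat
Kcne4, chr1:78816661-78816910, plus strand: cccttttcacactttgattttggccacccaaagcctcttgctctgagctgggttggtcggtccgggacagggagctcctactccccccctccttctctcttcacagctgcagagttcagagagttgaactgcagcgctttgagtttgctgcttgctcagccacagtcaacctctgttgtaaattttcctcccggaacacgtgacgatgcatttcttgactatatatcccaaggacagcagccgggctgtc
GGGCGG was present at 3 places in the Kcnk5 window, starting 106, 94 and 47 bases before the gene, at 2 places in the Kcnab1 window, starting 152 bases before it on the minus strand and 61 bases before it on the plus strand, and not in the Kcne4 window. RefSeq windows were found for 70 of the 90 genes, 95 windows in all. GGGCGG was in 44.2% of these 95 windows and in 32.7% of all 32851 windows of that length, TATAAA in 2.11% and 12.4%, and CATTCC in 13.7% and 12.6%. The CArG box was in 0 of the 95 and in 1.47% of all windows. GGGCGG did not separate the windows shown by the direction of the genes, since both the Kcnk5 and the Kcnab1 window held it. Among windows ending elsewhere, that of Kcnk1 held no GGGCGG and a Kcnk2 window held it. These are matches of letters and say nothing of binding.

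Among the calcium- and sodium-activated channels, 2 pore genes and 1 accessory gene differed most. Kcnmb1 (Entrez Gene 16533) encodes the beta subunit of the large-conductance (BK) channel typical of smooth muscle. It was 7.74 in the adult and 8.31 in the neonatal library and 5.50, 5.12 and 5.47 in the cultures with both agents, NRG-1 and DMSO, against 5.22 in iPS cells. The 2 heart-derived values lay above the other 4 by more than 2 units. The difference from iPS cells was 2.53 for the adult and 3.10 for the neonatal library.

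Kcnma1 (Entrez Gene 16531), the pore of the same BK channel, did not follow its partner. Its mean over 2 probe sets was 6.44 in the adult and 3.95 in the neonatal library and 4.91, 5.27 and 5.08 in the cultures with both agents, NRG-1 and DMSO, against 5.64 in iPS cells. The neonatal library, where Kcnmb1 was highest, was the lowest for Kcnma1. The brighter probe set alone read 8.89 in the adult and 4.29 in the neonatal library and 6.44 to 6.75 in the cultures, against 7.34 in iPS cells, so adult minus neonatal was 4.60. The dimmer one stayed between 3.38 and 3.99 in all 6 libraries. The adult minus neonatal difference of the mean, 2.49, therefore rests on 1 probe set, since the dimmer one gave 0.39.

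**Figure D2:**
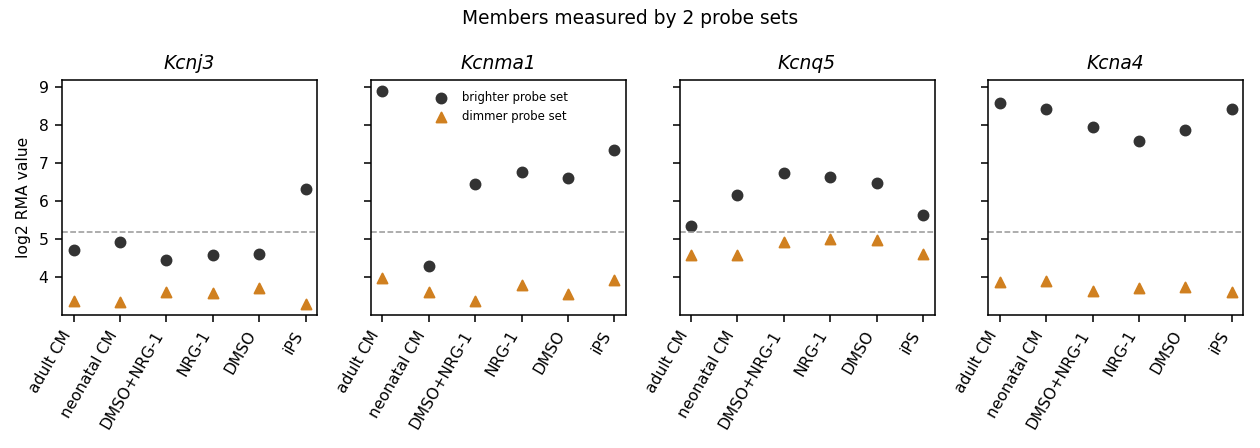
Log2 RMA value (vertical axis) of the brighter (circles) and dimmer (triangles) probe set of Kcnj3, Kcnma1, Kcnq5 and Kcna4 in each library, with the table median as a dashed line. The dimmer probe set stays below the median in all 6 libraries for each gene, and the brighter one of Kcnj3 is above it in the iPS library alone.

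Kcnt2 encodes Slick, a sodium-activated channel. It was 7.31 in the adult and 5.55 in the neonatal library and 3.58, 3.26 and 3.75 in the cultures with both agents, NRG-1 and DMSO, against 5.04 in iPS cells. The iPS value thus lay between the heart-derived libraries and the cultures. The adult library differed from iPS cells by 2.27 and the cultures by -1.46, -1.78 and -1.29 for both agents, NRG-1 and DMSO, the iPS value being below the median. Kcnn4, the intermediate-conductance calcium-activated channel, was 5.20 in the adult and 5.93 in the neonatal library and 6.57, 6.25 and 6.58 in the cultures with both agents, NRG-1 and DMSO, against 5.77 in iPS cells. Its largest distance, 1.38, was between the adult library and the DMSO culture. Kcnn3, a small-conductance channel, was 3.98 in the adult and 4.87 in the neonatal library and 5.04 to 5.28 in the cultures, against 5.01 in iPS cells.

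Of the accessory subunits, Kcnab1 and Kcne4 were higher in the heart-derived libraries. Kcnab1 (Entrez Gene 16497) encodes a cytoplasmic beta subunit that speeds inactivation of Kcna channels. It was 6.43 in the adult and 7.37 in the neonatal library and 4.50, 4.63 and 4.93 in the cultures with both agents, NRG-1 and DMSO, against 4.55 in iPS cells. Neither a culture nor the iPS library reached the table median. The differences from iPS cells were 1.87 for the adult and 2.82 for the neonatal library. Kcne4 (Entrez Gene 57814) encodes a membrane subunit that inhibits several voltage-gated pores. It was 6.54 in the adult and 5.17 in the neonatal library and 4.60 to 4.63 in the cultures, against 4.17 in iPS cells. Only the adult value was above the median, with a difference of 2.37 from iPS cells.

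Smooth muscle and fibroblast markers were also higher in the libraries where Kcnmb1, Kcnab1, Kcnk2, Kcne4 and Kcnt2 were high. The 8 smooth muscle and pericyte markers, among them Acta2, Tagln and Cnn1, averaged 8.83 in the adult and 8.83 in the neonatal library and 7.20 to 7.44 in the cultures, against 6.74 in iPS cells, and 5 and 6 of them were at least 2-fold higher in the adult and in the neonatal library than in iPS cells. Myh11 was higher by 0.38 and 0.53 and Smtn by 0.80 and 0.80 in the adult and neonatal libraries, under 2-fold. All 7 fibroblast markers were at least 2-fold higher than in iPS cells in both heart-derived libraries. In each culture 6 fibroblast markers and Tagln were also at least 2-fold higher than in iPS cells. None of the channel genes named above was 2-fold higher there, and Kcnt2 differed by -1.46, -1.78 and -1.29 with both agents, NRG-1 and DMSO. Macrophage markers averaged 6.98 in the adult and 5.84 in the neonatal library and 6.20 to 6.38 in the cultures, against 5.38 in iPS cells. The members of this list did not move together. Cd68 was 8.82 in the adult and 7.25 in the neonatal library and 10.9 to 11.3 in the cultures, and Csf1r was also highest in the cultures. Lyz2, C1qa, C1qb and Adgre1 were highest in the adult library. The part of these cell types in the channel values was not tested.

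**Figure D3:**
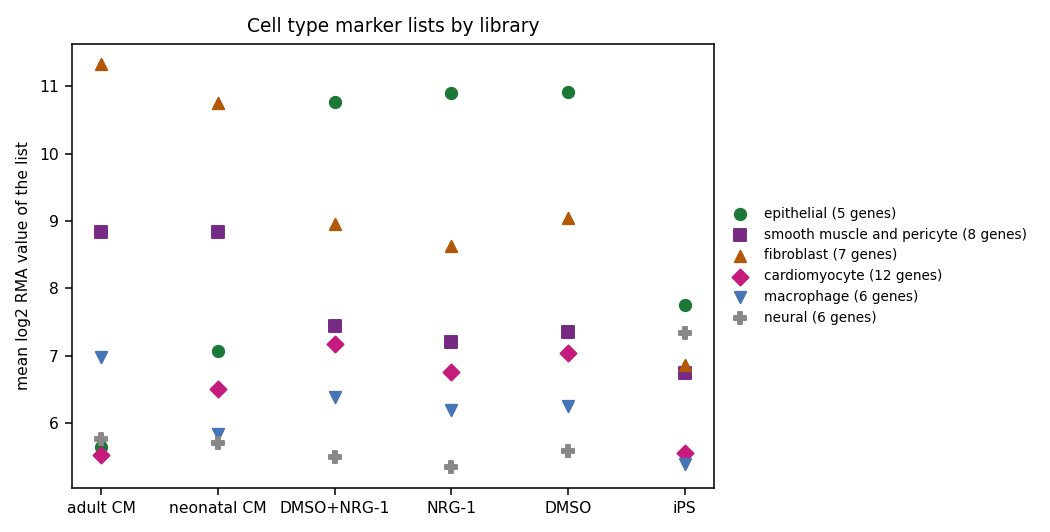
Mean log2 RMA value (vertical axis) of 6 lists of cell type markers in each library (horizontal axis, 1 point per list and library). The epithelial mean is 10.8 to 10.9 in the 3 cultures, against 5.64 and 7.07 in the heart-derived libraries, and the fibroblast mean is 11.3 and 10.8 in the adult and neonatal libraries.

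The other accessory genes included one that was dim everywhere but higher in iPS cells. Kcnip2 encodes KChIP2, the calcium-binding subunit of the cardiac transient outward channel. It was 3.71 in the adult and 3.61 in the neonatal library and 3.72, 3.55 and 3.63 in the cultures with both agents, NRG-1 and DMSO, against 4.81 in iPS cells. The iPS value stood apart from 5 values within 0.17 of each other, all 6 being below the median. Kcnip3, which encodes the calcium sensor DREAM, was 6.30 in the adult and 6.12 in the neonatal library and 5.62 to 5.90 in the cultures, against 6.56 in iPS cells. Kcne1 and Kcne1l kept their libraries within 0.55 and 0.38.

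Of the 36 voltage-gated pore genes, 2 reached a 2-fold distance between libraries, and the median distance was 0.61. These were Kcnf1, an electrically silent modifier subunit that was below the median throughout, and Kcnh3, an ether-a-go-go-like channel known from brain. Kcnh3 was 5.49 in the adult and 5.08 in the neonatal library and 5.38 to 5.74 in the cultures, against 6.12 in iPS cells. Kcnd1, a transient outward pore, was 5.73 in the adult and 5.48 in the neonatal library and 5.04 to 5.42 in the cultures, against 5.98 in iPS cells. For both genes the iPS library was the highest of the 6, by less than 2-fold except for Kcnh3 against the neonatal library. Kcnq5, an M-current pore, averaged 4.97 in the adult and 5.37 in the neonatal library and 5.73 to 5.83 in the cultures, against 5.12 in iPS cells. Its brighter probe set differed from iPS cells by 1.10, 1.00 and 0.84 with both agents, NRG-1 and DMSO, and the dimmer one by 0.32, 0.40 and 0.39. The 2 probe sets of Kcna4 were also far apart, at 7.58 to 8.59 for the brighter and 3.61 to 3.90 for the dimmer one.

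Among the inward rectifiers, Kcnj3 (Entrez Gene 16519) encodes GIRK1, the G protein-gated pore that carries the atrial acetylcholine response together with Kcnj5. Its mean over 2 probe sets was 4.05 in the adult and 4.13 in the neonatal library and 4.03, 4.08 and 4.16 in the cultures with both agents, NRG-1 and DMSO, against 4.81 in iPS cells. All 6 values were below the table median, and the iPS value was the highest. The brighter probe set alone read 4.72 in the adult and 4.91 in the neonatal library and 4.44, 4.59 and 4.62 in the cultures with both agents, NRG-1 and DMSO, against 6.32 in iPS cells. By that probe set the adult and neonatal libraries differed from iPS cells by -1.60 and -1.41, and the cultures with both agents, NRG-1 and DMSO by -1.88, -1.73 and -1.70. The dimmer one differed by 0.09, 0.04, 0.32, 0.27 and 0.40 in the same order, so the probe sets disagreed in sign. Pluripotency markers also stood highest in iPS cells, averaging 4.82 in the adult and 4.53 in the neonatal library and 5.57 to 5.89 in the cultures, against 9.68 in iPS cells, and 5 of 6 were at least 2-fold lower than in iPS cells in each of the other 5 libraries. Of the 6 neural markers, Sox1 and Stmn2 were lower than in iPS cells in all 5, while Tubb3 was 8.78 in the adult and 8.77 in the neonatal library and 5.05 to 5.73 in the cultures, against 8.66 in iPS cells. Map2 was 5.82 in the adult and 5.92 in the neonatal library and 4.31 to 4.84 in the cultures, against 5.73 in iPS cells. Snap25 went the other way in the cultures, at 5.99 to 6.68, against 5.54 in iPS cells, 5.01 in the adult and 4.90 in the neonatal library. Syt1 stayed between 5.23 and 5.53. The part of these cells in the Kcnj3, Kcnip2 and Kcnh3 values was not tested. Kcnj5, the GIRK4 pore, stayed between 4.78 and 4.98.

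Kcnj15, an inward rectifier known from kidney, was 5.46 in the adult and 4.93 in the neonatal library and 4.46 to 4.86 in the cultures, against 5.27 in iPS cells. The other inward rectifiers kept all libraries within 0.81, the distance for Kcnj16. The long antisense RNA Kcnq1ot1, which silences neighbouring genes on the paternal chromosome, lay between 6.66 in the adult library and 7.29 in the culture with both agents, while Kcnq1, which it overlaps, stayed between 4.35 and 4.97. Kcnd3os was 4.24 in the adult and 3.59 in the neonatal library and 4.10, 4.59 and 4.67 in the cultures with both agents, NRG-1 and DMSO, against 3.51 in iPS cells, all below the median.

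The genes behind the known potassium currents of heart muscle were then read as a group. Of 26 such genes, 24 were measured by a probe set of their own, and 11 of the 24 were below the table median in every library, where 34.3% of all genes were. The libraries were 2-fold or more apart for 5 of the 24, namely Kcnk1, Kcnab1, Kcnk2, Kcnn3 and Kcnip2, where 35.7% of all genes were, and the median distance was 0.67, against 0.78 for all genes. For the transient outward current, Kcnd2 was 4.17 in the adult and 5.01 in the neonatal library and 4.36 to 4.86 in the cultures, against 4.23 in iPS cells, and Kcnd3 was 5.14 in the adult and 4.84 in the neonatal library and 5.23 to 5.73 in the cultures, against 5.17 in iPS cells. For the rapid and slow delayed rectifiers, Kcnh2 (ERG1) stayed between 5.84 and 6.06 and Kcnq1 between 4.35 and 4.97. The inward rectifier pore Kcnj2 (Kir2.1), which holds the resting potential of ventricular cells, was 3.84 in the adult and 3.93 in the neonatal library and 3.85 to 4.05 in the cultures, against 4.18 in iPS cells. Kcnj12 (Kir2.2) was 5.24 in the adult and 5.05 in the neonatal library and 5.21 to 5.36 in the cultures, against 5.33 in iPS cells. The mouse ultrarapid channel gene Kcna5 was 4.66 in the adult and 4.50 in the neonatal library and 3.92 to 4.83 in the cultures, against 4.02 in iPS cells. The pores of the ATP-sensitive channel, Kcnj8 and Kcnj11, were 5.03 and 5.55 in the adult library, 4.91 and 4.88 in the neonatal one, 4.92 to 5.19 and 5.51 to 5.58 in the cultures, and 4.51 and 5.04 in iPS cells. The accessory genes Kcnab2, Kcne2 and Kcne1 spanned 0.67, 0.26 and 0.55, the inward rectifiers Kcnj4 and Kcnj14 0.50 and 0.49, and the small-conductance genes Kcnn1 and Kcnn2 0.66 and 0.61. Apart from the 5 genes named first, none of the 24 was 2-fold apart between a heart-derived library or a culture and iPS cells.

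**Figure D4:**
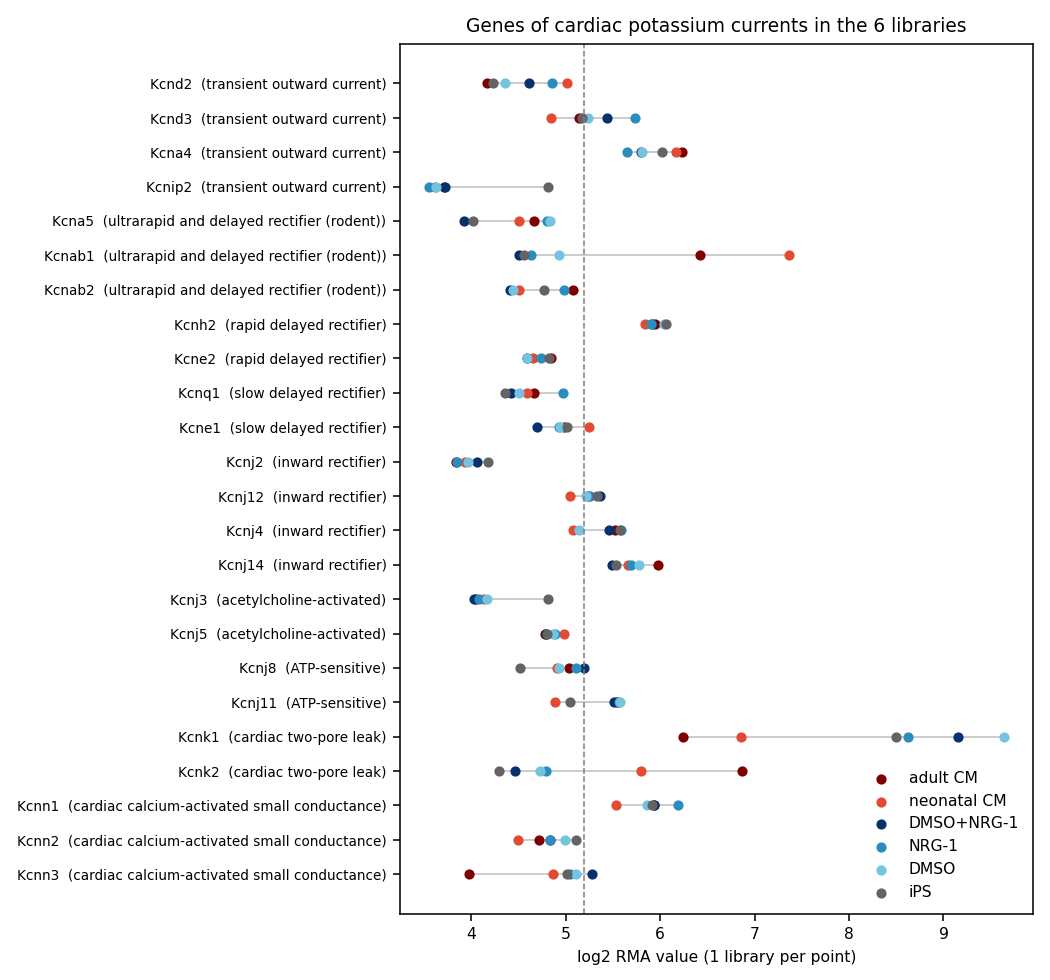
Log2 RMA value (horizontal axis) of the 24 measured genes of cardiac potassium currents, 1 row per gene with its current in brackets and 1 point per library. The dashed line is the table median; the points of most rows lie within 1 unit, and Kcnab1, Kcnk1 and Kcnk2 span 2.86, 3.40 and 2.57 units.

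Across comparisons, a gene was counted when the higher of its 2 levels was at or above the table median and the levels were at least 2-fold apart. Against iPS cells, the adult library had 5 of 38 such potassium channel genes higher (Kcnk2, Kcnmb1, Kcne4, Kcnt2 and Kcnab1), where 13.1% of all genes tested were higher, and 2 lower (Kcnk1 and Kcnk5), where 14.1% were lower. The neonatal library had 3 of 36 higher (Kcnmb1, Kcnab1 and Kcnk2), beside 13% of all genes, and 5 lower (Kcnk5, Kcnma1, Kcnk1, Kcnh3 and Kcnk13), beside 11.2%. The shares of the potassium channel genes were 13.2% and 5.26% in the adult and 8.33% and 13.9% in the neonatal comparison. They were near the background except for the lower calls in the adult library, and the background was not matched for level. When the higher level had to reach the 75th percentile, 5 genes entered for the adult library, with 2 higher and 2 lower.

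With the filter at the table median, the shares in the cultures were below the background, which was not matched for level. The culture with both agents had 1 of 36 genes higher than in iPS cells (Kcnk6), beside 13% of all genes, and 0 lower, beside 13.1%. The NRG-1 culture had 0 of 36 higher, beside 11.3%, and 0 lower, beside 14.5%, Kcnk6 being just under the threshold at 0.98. The DMSO culture had 3 of 35 higher (Kcnk1, Kcnk5 and Kcnk6, at 1.15, 1.12 and 1.10), beside 13.1%, and 0 lower, beside 13.3%. After a shift of the libraries to equal medians of housekeeping genes, set in each library by Ywhaz alone, Kcnk6 was at 0.997, leaving 2 genes higher. These 3 comparisons and those of the heart-derived libraries share the iPS library, so they are not independent. When the higher level had to reach the 75th percentile, only 4 genes entered for each culture. Of these, 3 were higher with DMSO, 1 with both agents and 0 with NRG-1, and 0 were lower in each. The share of all genes at that filter is not given here, so the shortfall is stated for the median filter only.

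The adult library was set against the neonatal one to ask how the heart-derived libraries differ. Adult levels were higher for 4 of 38 genes, Kcnma1 by 2.49, Kcnt2 by 1.76, Kcne4 by 1.37 and Kcnk2 by 1.07, or 10.5%, beside 2.52% of all genes. Kcnk5 was the 1 gene lower, with a difference of -1.38, beside 2.92%. The median difference was 0.17 over the 90 genes and 0.00 over all genes, and both medians include dim genes. Macrophage markers had a median difference of 1.24, fibroblast markers one of 0.47, cardiomyocyte markers one of -1.08 and epithelial markers one of -1.16, and their part in these values was not tested.

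The cultures were compared with each other. Only both agents minus DMSO asks what NRG-1 adds, and both agents minus NRG-1 asks what DMSO adds. NRG-1 minus DMSO changes both agents at once, so its differences cannot be given to either. NRG-1 minus DMSO gave 0 of 35 genes higher, beside 0.36% of all genes, and 1 lower, Kcnk1 at 8.63 with NRG-1 and 9.65 with DMSO, a difference of -1.02, beside 1.78%. The culture with both agents, at 9.15, lay between them. Kcnk1 was the one potassium channel gene past the threshold in a comparison of 2 cultures, and after the same housekeeping shift its difference was -0.76, under the threshold. Both agents minus DMSO gave 0 of 31 higher, beside 0.0455%, and 0 lower, beside 0.053%, with differences of -0.49 to 0.38. Both agents minus NRG-1 gave 0 of 37 higher, beside 1.08%, and 0 lower, beside 0.293%, with differences of -0.64 to 0.53. With a background this low, counts of 0 among fewer than 40 genes carry little information.

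**Figure D5:**
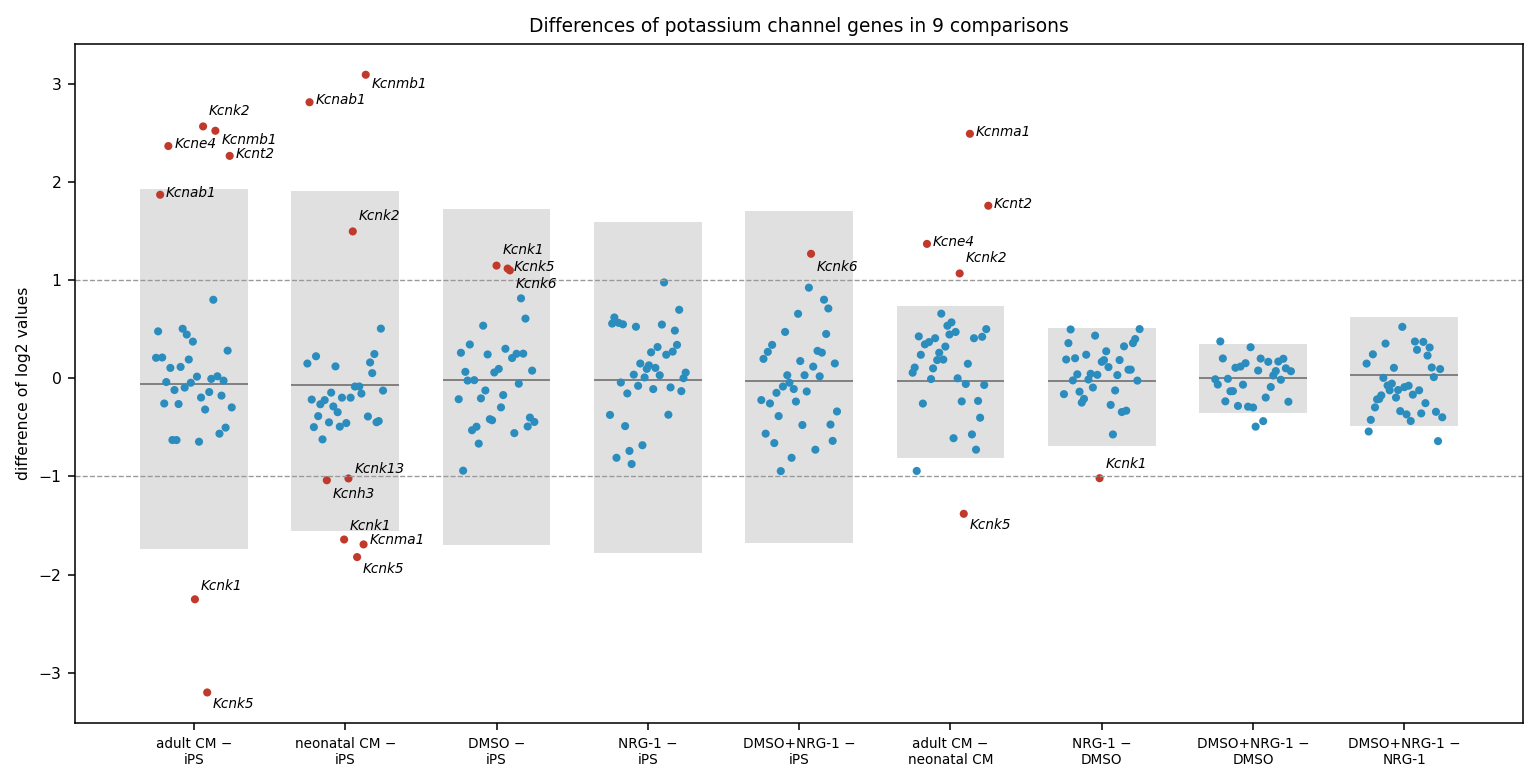
Difference of log2 values (vertical axis) of the potassium channel genes that passed the filter in each of 9 comparisons (horizontal axis), 1 point per gene, with those at least 2-fold apart in red and named. Grey bars run between the 5th and 95th percentiles of all genes tested with the median as a line, and the dashed lines are at -1 and 1; Kcnk5 in the adult library, at -3.20, is the lowest point and Kcnmb1 in the neonatal library, at 3.10, the highest.

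The day 7 cultures were also set against the heart-derived libraries, a comparison added after the data were seen. All 3 cultures were at least 2-fold above both heart-derived libraries for 3 of 43 genes, Kcnk5, Kcnk1 and Kcnk6, beside 4.64% of all genes, and at least 2-fold below both for 4, Kcnmb1, Kcnt2, Kcnab1 and Kcnk2, beside 4.71%. The smallest difference between a culture and a heart-derived library was 2.37 for Kcnk5, 1.78 for Kcnk1 and 1.06 for Kcnk6. For the genes that were lower in the cultures, the smallest distance was -2.24 for Kcnmb1, -1.80 for Kcnt2, -1.50 for Kcnab1 and -1.01 for Kcnk2. The shares, 6.98% and 9.30%, rest on 3 and 4 genes, and the housekeeping shift left 3 genes lower. The mean of the epithelial markers was also higher in the cultures, and those of the smooth muscle and fibroblast markers were lower; their part in these values was not tested.

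Partners of potassium channels and other cardiac ion channels were read from lists for comparison. Of 14 partner genes measured of 15, 4 spanned 2-fold or more over the libraries, beside 35.7% of all genes. Rgs4, which shortens G protein signals to GIRK channels, was 5.54 in the adult and 5.29 in the neonatal library and 7.20, 7.85 and 7.32 in the cultures with both agents, NRG-1 and DMSO, against 5.12 in iPS cells. Lrrc38, an accessory subunit of BK channels, was 4.69 in the adult and 4.65 in the neonatal library and 5.74, 6.35 and 5.56 in the cultures with both agents, NRG-1 and DMSO, against 4.09 in iPS cells. For both genes the cultures stood above the other 3 libraries. Cav3, the muscle caveolin, was higher in the adult library than in iPS cells by 1.20, and Abcc9, the regulatory subunit of the Kcnj8 and Kcnj11 channels, was 5.95 in the adult and 6.07 in the neonatal library and 5.07 to 5.31 in the cultures, against 5.19 in iPS cells. The muscarinic receptor Chrm2, which opens the Kcnj3 channel in atria, stayed below the median, between 4.18 and 4.70.

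Of 13 other cardiac ion channel genes measured of 16, 7 spanned 2-fold or more, beside the same 35.7%. The calcium channel pore Cacna1c was higher than in iPS cells by 1.15 in the adult and 1.60 in the neonatal library, and its partner Cacna2d1 by 1.50 and 1.11. Cacnb2, another calcium channel subunit, was higher by 1.08 in the neonatal library. Cacna1d was 6.04, 5.77 and 5.35 in the cultures with both agents, NRG-1 and DMSO, against 4.61 in iPS cells, and differed by 1.43 and 1.16 with both agents and NRG-1. The connexin Gjc1 differed from iPS cells by -1.20 with both agents, and Gja1 differed by -1.15 between the adult and neonatal libraries. Hcn3, the other gene to span 2-fold, and the pacemaker channel Hcn4 were below the median in every library.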

How the data were processed

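The values are log2 expression values, deposited by the authors as 1 table of 41345 probe sets by 6 libraries; per the submitters' processing notes RMA was used. For its version, software and genome build, the sources used here give nothing. The scale was taken from the range of values. Since RMA equalises arrays, a shift shared by most genes would not show. The number of arrays limits the precision.

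Names came from the platform annotation, for probe sets with 1 symbol. All 90 genes matched RefSeq (GRCm38.p6) by Entrez identifier, and no symbol changed. Of the 8 other RefSeq genes whose symbol begins with Kcn, 3 appear on probe sets shared with another gene and 5 were not analysed here. Differences were computed with pandas 2.3.3, cyclic loess with limma 3.58.1 in R 4.3.3, and figures with matplotlib 3.10.9; the counting was tested on simulated data.

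The rule for named genes took Kcnj3, genes at least 2-fold apart in any of the 9 comparisons with the higher value at or above the table median, the cardiac current genes, by name the genes below the median in every library, and, of the partner and other ion channel lists, genes at least 2-fold apart. Kcnn4, Kcnj15, Kcnj16, Kcnd1, Kcnq5, Kcnip3, Kcne1l, Kcnq1ot1, the values of Kcnd3os, the other tandem pore genes, Abcc9, Chrm2, Hcn3 and Hcn4 were added after their values were seen. Genes and lists were chosen with earlier results of these data known. Alternatives were other filters and medians, the brightest probe set, cyclic loess, and a shift to equal medians of 9 housekeeping genes. In each library the median of the 9 was the level of Ywhaz, so the shift follows that gene alone. Others of the 9 were not stable, since B2m, Gusb and Hprt spanned 3.47, 1.80 and 1.57 over the libraries.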

Additional observations from a re-analysis of the deposited data

Results flagged for a closer look

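Kcnk1 and Kcnk5 differed from iPS cells in opposite directions in different groups, by at least 2-fold each way; these differences were not tested, since each group has 1 library. Kcnk1 was higher than in iPS cells by 1.15 in the DMSO culture, and its differences were -2.25 in the adult and -1.64 in the neonatal library, so DMSO exceeded the adult library by 3.40 and the neonatal one by 2.79. Kcnk5 was higher by 1.12 with DMSO, and its differences were -3.20 in the adult and -1.82 in the neonatal library, so DMSO exceeded them by 4.32 and 2.94.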

How the results depend on the processing

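No paired analysis was possible because each group has 1 library. Cyclic loess and the shift to equal housekeeping medians kept the sign of all 25 differences counted in the 9 comparisons and moved none by 1.5-fold; with the brightest probe set the 2 Kcnma1 differences grew, to -3.05 for neonatal minus iPS and 4.60 for adult minus neonatal. The housekeeping shift moved the median of all genes by -0.17 to 0.26. Counts of potassium channel genes changed by over 1.5 times as follows. The shares over all genes under the alternatives are not given here. With no filter on dim genes, all 90 genes entered. Of these, 5 were lower in the adult library than in iPS cells, 2 lower in each of the DMSO, NRG-1 and combined cultures, and 1 higher with NRG-1. With a filter at the 75th percentile (6.93), only 5 genes entered for the adult and 5 for the neonatal library against iPS cells. Of these, 2 were higher in the adult and 2 lower in the neonatal library. For adult minus neonatal 4 genes entered, and 1 was higher and 0 lower. For the other changed counts, given next, 33 to 41 genes entered. With the brightest probe set, 1 gene was lower in each culture and 2 were higher with both agents. Cyclic loess made 1 lower with DMSO, 1 lower with both agents and 1 higher with NRG-1. The housekeeping shift made 1 lower with DMSO, 1 higher with NRG-1, and 0 lower for NRG-1 minus DMSO, where Kcnk1, at -0.76, no longer passed; it also took Kcnk6 with DMSO to 0.997, leaving 2 genes higher. The counts for cultures against heart-derived libraries and for genes below the median changed by less than 1.5 times under every alternative run.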

Other observations

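Of the potassium channel genes on probe sets shared with another gene, Kcnk3, the TASK-1 leak channel of heart, was read with Gm9899 by 2 probe sets. The brighter read 6.21 in the adult and 5.96 in the neonatal library and 6.12 to 6.51 in the cultures, against 5.95 in iPS cells, and the other read 5.50 in the adult and 5.39 in the neonatal library and 5.27 to 5.63 in the cultures, against 5.32 in iPS cells. The libraries lay within 2-fold of each other on both, and neither reading can be given to 1 gene.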
